A study of Mus musculus with 6 samples.

Results

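Liver sinusoidal endothelial cells line the fenestrated capillaries of the liver lobule. They were profiled by RNA sequencing of poly(A)-selected RNA in 6 libraries from wild-type mice. The libraries titled aging (replicates 2, 3 and 5) carry an age label of 8 weeks, and those titled control (replicates 1, 2 and 3) carry an age label of 24 months. The titles and the age labels therefore contradict each other, and aging and control stand below for the titles alone. All 6 share the genotype, and no treatment is labelled. Whether every library stands for its own animal is not stated, so the tests gauge variation from library to library, which may be technical. The genes described are 53 cell cycle and DNA replication genes among the 22298 genes of the deposited table, taken from a fixed list of symbols. All 53 symbols were found, each in 1 row. By role, 29 are genes of mitosis and 24 act in DNA replication or at the step from G1 into S phase.

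A cell that divides first licenses its replication origins by loading the MCM helicase, then fires them in S phase under cyclin E and Cdk2, with E2F factors switching on the genes of replication. It then separates its chromosomes in mitosis under cyclin B and Cdk1, with the spindle checkpoint holding back anaphase until every chromosome is attached. Most liver sinusoidal endothelial cells of an uninjured adult liver rest outside the cycle, and they divide after liver resection or injury. In RNA from many cells, more cycling cells and more transcript per cycling cell cannot be told apart.

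Library totals lay between 15999220 and 17871220 counts, and mitochondrial transcripts made up 2.74% to 3.33% of them. The 10 endothelial markers of the sinusoid, such as Stab1, Stab2 and Pecam1, summed to 24042 to 26803 CPM (counts scaled to 1e+06 per library with TMM factors) in aging libraries, against 23813 to 29360 CPM in control libraries, and none passed the test. Lyve1, a hyaluronan receptor within that list, had 244, 67.7 and 462 CPM in aging replicates 2, 3 and 5, against 551, 629 and 662 CPM in control replicates 1, 2 and 3. It was lowest in aging replicate 3, the groups did not overlap, and it did not pass (log2 fold change -1.25 ± 0.60, SE; edgeR adjusted p = 0.207). Of 7 neutrophil markers, 6 were called higher in aging libraries by edgeR at an adjusted p under 0.05, and the 7 summed to 4165, 1754 and 1526 CPM in aging replicates 2, 3 and 5, against 463, 445 and 211 CPM in control replicates 1, 2 and 3. Markers of neutrophil precursors, the dividing stage of that lineage, summed to 0.174 to 1.36 CPM in aging libraries and 0.119 to 0.562 CPM in control libraries. Among 5 precursor markers, 3 had no count in aging replicate 5 and in control replicate 1, and 2 had none in control replicates 2 and 3. The 7 B and plasma cell markers summed to 55.9 to 237 CPM in aging libraries, against 26.8 to 69.0 CPM in control libraries. Of 7 stellate cell and fibroblast markers, 3 were called lower by edgeR (Reln, Dcn and Lrat), and the 7 summed to 19.34 to 21.03 CPM in aging libraries, against 38.5 to 46.0 CPM in control libraries. The part of these lists in the results on the members was not tested.

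The comparison of aging with control libraries asks whether transcripts of the division cycle differ between them. Kif23, a kinesin of the central spindle needed for cytokinesis, and E2f2, a transcription factor that drives entry into S phase, rose in aging libraries, by 1.22 ± 0.30 and 1.54 ± 0.35 on the log2 scale (SE; edgeR adjusted p = 0.0402 and 0.032). They were the 2 called members of 52 tested (3.85%), where 7.22% of all 13096 genes tested were called higher and 5.59% lower. No member fell. Over all genes 946 were called higher and 732 lower, a split that became 823 higher and 969 lower with upper-quartile scaling. At an unadjusted p under 0.05, 11 members were higher (21.2%) and 1 was lower, where 16.6% of all genes were higher and 14.7% lower. The share of members called is below that of all genes and the unadjusted share is near it, so these counts do not set the members apart. DESeq2 called 5 members higher (E2f2, Gins2, Kif23, Mki67 and Pcna) and none lower, where it called 9.54% of all genes higher and 6.71% lower.

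**Figure D1:**
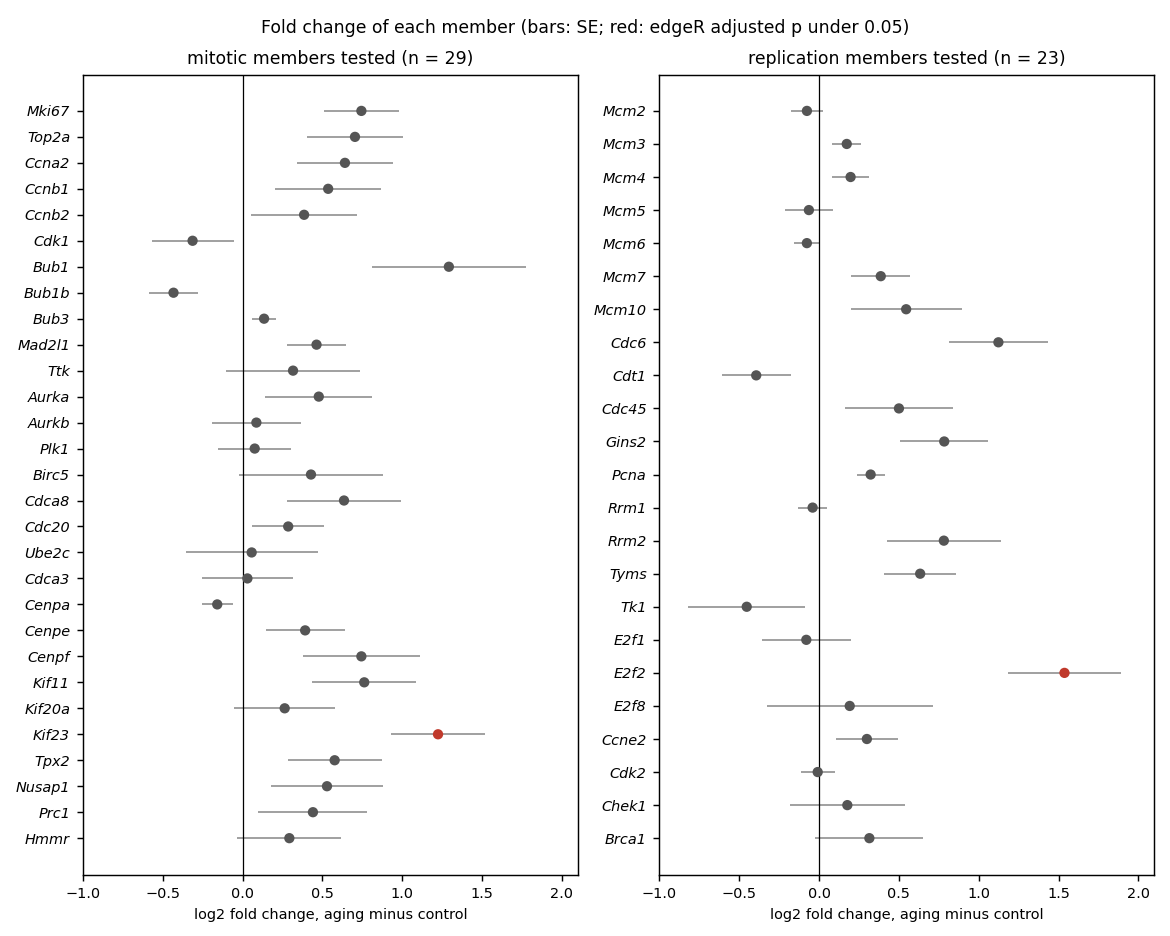
The log2 fold change of each tested member, aging minus control, is plotted with its SE for 29 mitotic members (left) and 23 replication members (right). Red points are Kif23 and E2f2, which passed an edgeR adjusted p of 0.05; most grey points of the mitotic members lie right of 0 without passing.

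More members lay above 0 than below it. The log2 fold change was above 0 for 26 of 29 mitotic members, with a median of 0.43, and for 15 of 23 replication members, with a median of 0.20. Over all genes tested 49.3% were above 0 and the median was -0.01. The higher median of the mitotic members was lost without aging replicate 5, where it was 0.27 for mitotic and 0.28 for replication members. The groups did not overlap for 12 members higher and 2 members lower in aging libraries, against 19.2% and 18.8% of all genes. Among the 12, 6 were mitotic (Mki67, Bub1, Bub3, Mad2l1, Cenpe and Kif23) and 6 of replication (Cdc6, Gins2, Pcna, Tyms, E2f2 and Ccne2); the 2 lower ones were Bub1b and Cdt1.

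Kif23 (ENSMUSG00000032254) had 28.8, 15.2 and 14.2 CPM in aging replicates 2, 3 and 5, against 9.59, 7.14 and 8.18 CPM in control replicates 1, 2 and 3. Aging replicate 2 stood well above the other libraries, and all 3 aging libraries were above all 3 control libraries. The means were 19.4 ± 8.18 CPM in aging and 8.31 ± 1.23 CPM in control libraries (SD, n = 3 each). E2f2 (ENSMUSG00000018983) had 10.1, 5.49 and 4.19 CPM in aging replicates 2, 3 and 5, against 2.15, 2.64 and 2.01 CPM in control replicates 1, 2 and 3. The groups did not overlap for E2f2 either, and the order of its aging libraries was that of Kif23. E2f2 averaged 6.60 ± 3.12 CPM in aging and 2.27 ± 0.332 CPM in control libraries (SD, n = 3 each), a 2.90-fold rise. In the counts themselves, E2f2 had 176, 93 and 72 in aging replicates 2, 3 and 5, against 36, 47 and 32 in control replicates 1, 2 and 3.

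The order of the aging libraries for both genes, replicate 2 above 3 above 5, is also the order of the summed neutrophil markers given above. It is not particular to them: 7 macrophage markers summed to 1462, 795 and 566 CPM in aging replicates 2, 3 and 5. In control replicates 1, 2 and 3 the macrophage markers summed to 1339, 871 and 1168 CPM, and none of the 7 was called. Their log2 fold change was below 0 for 6 and above 0 for 1. Timd4 was just outside the threshold, with all aging libraries below all control libraries (log2 fold change -1.29 ± 0.33, SE; edgeR adjusted p = 0.051). The part of either list in the result was not tested. The same order was present in 8 of 24 replication members and 2 of 29 mitotic members, where 22.2% of all genes tested showed it. Without aging replicate 2, Kif23 and E2f2 had log2 fold changes of 0.82 and 1.09 and stayed called. Without aging replicate 3 or any 1 control library neither was called, although the log2 fold changes were 1.13 to 1.38 for Kif23 and 1.46 to 1.66 for E2f2, with edgeR adjusted p between 0.0584 and 0.142 for Kif23 and between 0.0600 and 0.113 for E2f2.

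**Figure D2:**
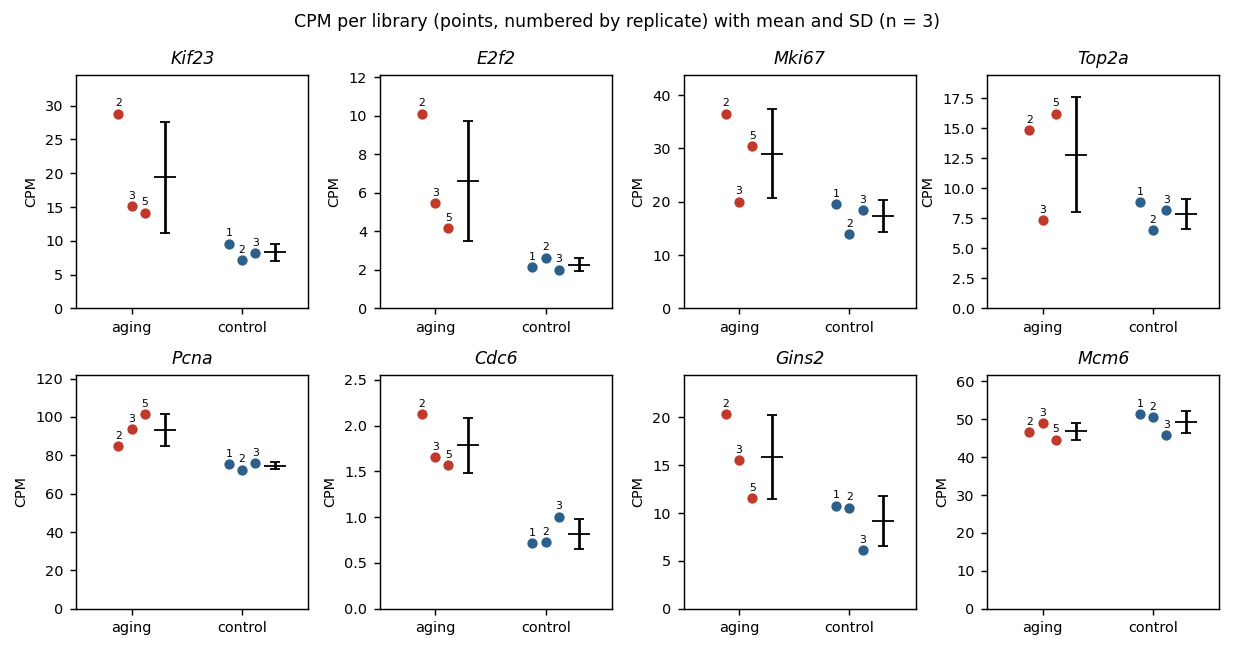
CPM of 8 members in each library is drawn as points numbered by replicate, with the group mean and SD (n = 3) beside them, aging in red and control in blue. For Kif23, E2f2, Mki67, Pcna, Cdc6 and Gins2 the aging points all lie above the control points, for Top2a aging replicate 3 lies at 7.32 CPM among the controls, and for Mcm6 the groups overlap.

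Among the general marks of dividing cells, neither Mki67 nor Top2a passed in edgeR. Mki67 (ENSMUSG00000031004), the Ki-67 protein that coats mitotic chromosomes, had 36.5, 20.02 and 30.5 CPM in aging replicates 2, 3 and 5, against 19.6, 13.9 and 18.4 CPM in control replicates 1, 2 and 3. Aging replicate 3 was barely above control replicate 1, so the groups did not overlap. The log2 fold change was 0.74 ± 0.24 (SE; edgeR adjusted p = 0.0814), and DESeq2 called it (DESeq2 adjusted p = 0.0227). In the authors' FPKM, which also divide by transcript length, Mki67 had 3.62, 2.74 and 2.91 in aging replicates 2, 3 and 5, against 2.04, 1.38 and 1.82 in control replicates 1, 2 and 3. On that scale aging replicate 3 stood clear of the control libraries, although its 339 counts were close to the 329 of control replicate 1. Division by 1 fixed length would not separate these 2 libraries, and why their FPKM differ more than their CPM was not tested. Top2a, the topoisomerase that untangles replicated chromosomes, had 14.8, 7.32 and 16.2 CPM in aging replicates 2, 3 and 5, against 8.88, 6.52 and 8.18 CPM in control replicates 1, 2 and 3. The groups overlapped at aging replicate 3 (log2 fold change 0.70 ± 0.30, SE; edgeR adjusted p = 0.159).

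The cyclins of mitosis shared this pattern. Ccna2, the cyclin of S phase and G2, had 8.57, 4.55 and 10.5 CPM in aging replicates 2, 3 and 5, against 4.89, 4.50 and 5.79 CPM in control replicates 1, 2 and 3. Aging replicate 3 again lay within the control range, and the log2 fold change of 0.64 ± 0.30 (SE) did not pass. Ccnb1 and Ccnb2, the B cyclins that drive mitosis, had log2 fold changes of 0.54 ± 0.33 and 0.39 ± 0.33 (SE). Their partner kinase Cdk1 went the other way, at 7.88, 4.02 and 6.51 CPM in aging replicates 2, 3 and 5, against 8.52, 7.87 and 6.48 CPM in control replicates 1, 2 and 3, a log2 fold change of -0.31 ± 0.26 (SE). With aging replicate 3 left out, Mki67, Top2a and Ccna2 were called, with log2 fold changes of 0.96, 0.99 and 0.92 and edgeR adjusted p of 0.0353, 0.0337 and 0.0476.

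Aging replicate 3 was the lowest of the 3 aging libraries for 25 of 29 mitotic members (86.2%), for 8 of 24 replication members (33.3%) and for 27.5% of all genes tested. The highest of the 6 libraries was aging replicate 5 for 13 (44.8%) and aging replicate 2 for 11 (37.9%) of the 29 mitotic members. Control replicate 2 was the lowest of the 6 for 14 of them, where it was lowest for 12.4% of all genes. In replication members aging replicate 2 was the highest for 12 of 24 (50%) and aging replicate 5 for 3 (12.5%). Over all genes tested, aging replicate 5 was the highest for 22.1% and aging replicate 2 for 19.0%. The spread between replicates followed: the median coefficient of variation of mitotic members was 30.9% in aging and 17.2% in control libraries, whereas that of replication members was 15.2% in aging and 14.6% in control libraries. Over all genes tested it was 12.8% in aging and 9.29% in control libraries.

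**Figure D3:**
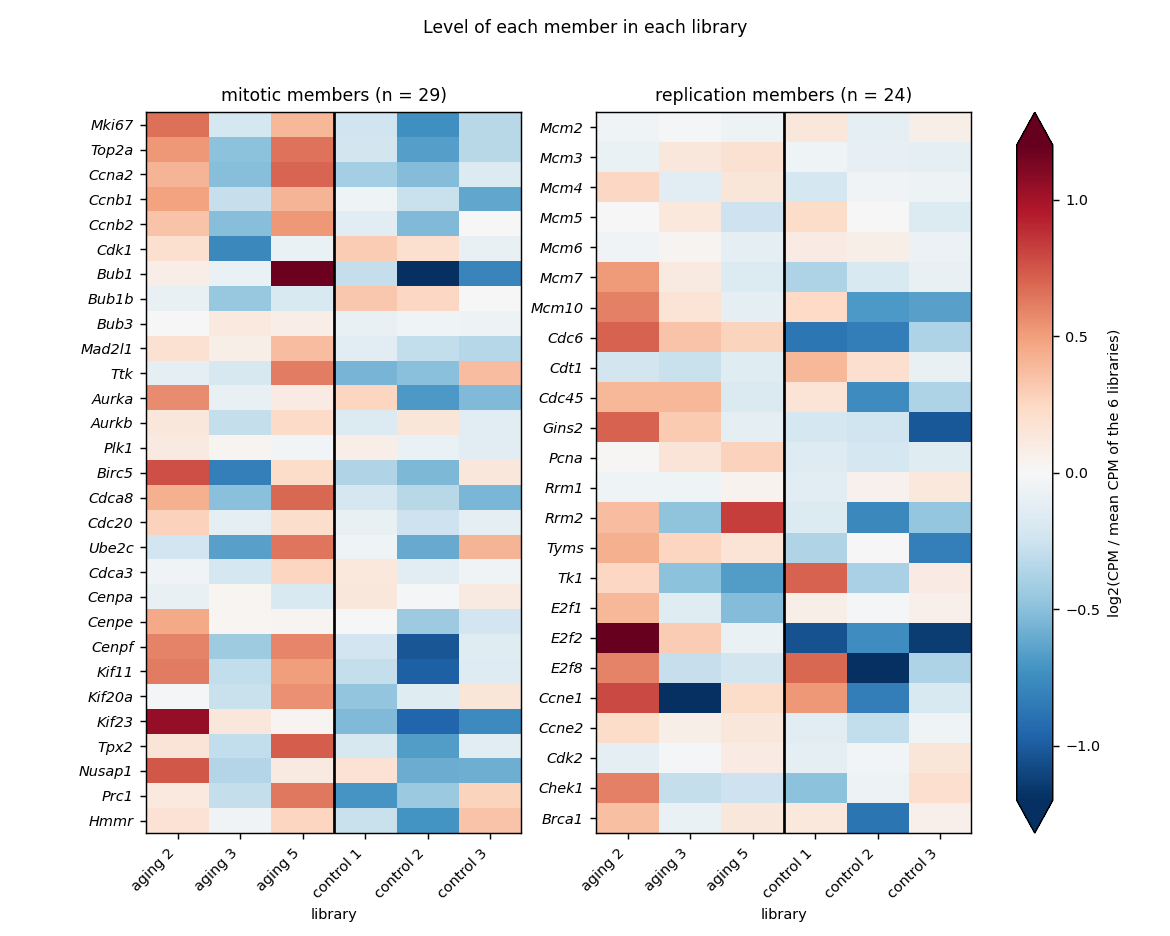
Each cell gives the log2 ratio of a member's CPM in 1 library to its mean over the 6 libraries, with aging libraries left of the black line and control libraries right of it. The mitotic panel is mostly red in aging replicates 2 and 5 and mostly blue in aging replicate 3 and control replicate 2, while the rows of Mcm2, Mcm3 and Mcm6 are pale throughout.

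The summed CPM of the 29 mitotic members was 255, 193 and 242 in aging replicates 2, 3 and 5, against 196.6, 172.5 and 190.5 in control replicates 1, 2 and 3. Aging replicate 3 lay between control replicates 1 and 3 in this sum. The 24 replication members summed to 466, 460.5 and 469 CPM in aging replicates 2, 3 and 5, against 421, 412 and 414 CPM in control replicates 1, 2 and 3. There all aging libraries were above all control libraries, and aging replicate 3 did not stand apart. The ratio of the mitotic to the replication sum was 0.547, 0.419 and 0.516 in aging replicates 2, 3 and 5, against 0.467, 0.419 and 0.461 in control replicates 1, 2 and 3, so that the groups overlapped.

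**Figure D4:**
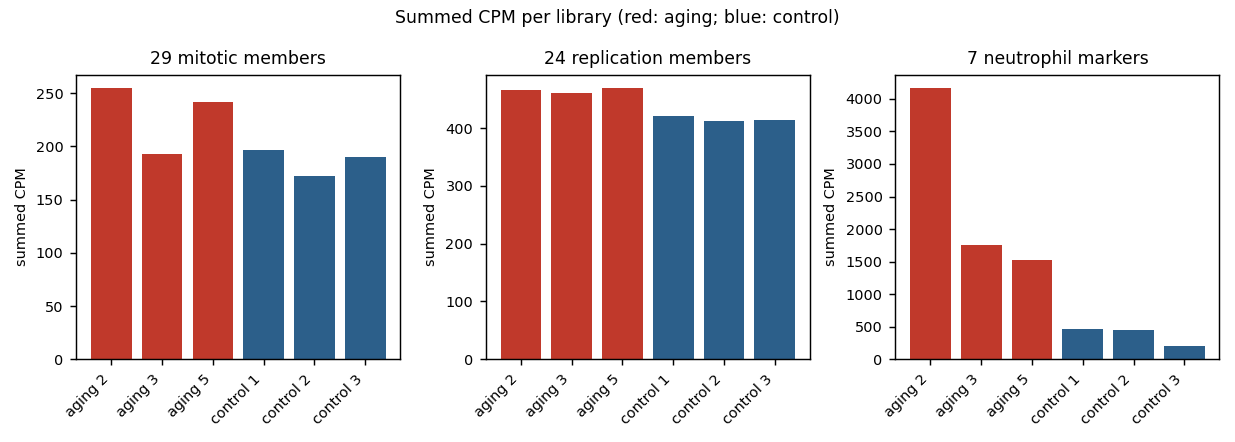
Bars give the summed CPM per library of the 29 mitotic members, the 24 replication members and 7 neutrophil markers, aging libraries in red and control libraries in blue. The mitotic sum of aging replicate 3 (193 CPM) is level with the control bars, while its replication sum (460.5 CPM) is level with the other aging bars; the neutrophil sum is highest in aging replicate 2 (4165 CPM).

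Promoters of both classes differ in short motifs, and 5 are shown: those of the called genes, of Mki67 and Top2a, and of Mcm6, chosen after its motifs were seen. The motifs searched on both strands were the CHR element of mitotic genes (TTTGAA or TTCGAA), the CCAAT box (CCAAT) and E2F sites (the letters TTCGCGC as well as TTGGCGC, besides TTCCCGC together with TTGCCGC). The window ran from 250 bases before to 50 after each RefSeq start on GRCm38.p6, and overlapping matches were counted separately. Each stretch below is the 200 bases before the start, 5′ to 3′ on the gene's strand, with motif letters in capitals; 2 E2F matches that overlap form 1 longer run of capitals.
Kif23, chr9:61946800-61946999, minus strand: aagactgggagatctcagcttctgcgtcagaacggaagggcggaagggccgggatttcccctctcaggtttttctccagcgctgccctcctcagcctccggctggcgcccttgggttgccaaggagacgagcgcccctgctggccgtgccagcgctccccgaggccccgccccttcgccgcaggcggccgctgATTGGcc
E2f2, chr4:136172074-136172273, plus strand, the first of its 2 starts in the table: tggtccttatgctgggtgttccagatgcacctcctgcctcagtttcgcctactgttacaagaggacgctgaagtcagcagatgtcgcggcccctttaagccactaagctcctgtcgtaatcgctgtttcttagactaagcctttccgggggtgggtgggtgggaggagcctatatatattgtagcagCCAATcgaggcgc
Mki67, chr7:135716380-135716579, minus strand: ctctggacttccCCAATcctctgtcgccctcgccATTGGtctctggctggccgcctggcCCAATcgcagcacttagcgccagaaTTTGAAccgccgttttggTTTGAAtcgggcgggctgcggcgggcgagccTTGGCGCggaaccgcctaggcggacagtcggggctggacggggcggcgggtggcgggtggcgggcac
Top2a, chr11:99024190-99024389, minus strand: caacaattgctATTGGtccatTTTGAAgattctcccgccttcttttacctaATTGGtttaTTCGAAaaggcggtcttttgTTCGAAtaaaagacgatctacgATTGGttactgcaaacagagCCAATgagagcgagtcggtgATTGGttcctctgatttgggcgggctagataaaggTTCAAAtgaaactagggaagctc
Mcm6, chr1:128359706-128359905, minus strand: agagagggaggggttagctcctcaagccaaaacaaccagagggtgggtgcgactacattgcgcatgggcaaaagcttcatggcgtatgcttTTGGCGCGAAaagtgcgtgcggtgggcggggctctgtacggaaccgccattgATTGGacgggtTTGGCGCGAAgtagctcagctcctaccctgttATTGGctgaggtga
Top2a held 4 CHR and 5 CCAAT matches in this stretch, Mki67 2 CHR, 3 CCAAT and 1 E2F match, and Mcm6 4 E2F and 2 CCAAT matches with no CHR. Kif23 and E2f2 each held 1 CCAAT box in the stretch, and in the whole window Kif23 also had 1 CHR and E2f2 1 E2F match. The other start of E2f2 had 1 CHR, 3 CCAAT and no E2F match in its window.

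Windows were given for 25 mitotic and 21 replication members. A CHR match was present in 20 of the 25 mitotic members (80.0%) and 5 of the 21 replication members (23.8%), against 17.0% of the 10356 tested genes with a window. A gene with several starts counts where any of its windows holds the motif, as E2f2 does for both CHR and E2F. An E2F match was present in 4 mitotic members (16.0%) and 13 replication members (61.9%), against 18.7% of tested genes. The CCAAT box was present in 22 mitotic members (88.0%) and 14 replication members (66.7%), against 43.1% of tested genes. These matches are letters in a window and show no binding.

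Levels per length differed by more than an order of magnitude between members. By mean FPKM over the 6 libraries the highest were Pcna at 55.2, Mcm3 at 30.8, Bub3 at 25.2, Cenpa at 24.2 and Mcm6 at 16.0, and the lowest was Brca1 at 0.282. Of the mitotic members 11 of 29 were under 1 FPKM and 3 at 5 or more, and of the replication members 8 of 24 were under 1 and 9 at 5 or more. Bub3 and Cenpa, neighbours in this order, averaged 25.9 ± 1.03 and 22.5 ± 2.20 FPKM in aging libraries and 24.4 ± 0.504 and 25.9 ± 2.32 FPKM in control libraries (SD, n = 3 each), so that they overlapped only in control libraries. Mki67 stood at 2.42 FPKM, below all 6 genes of the MCM helicase.

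Of the 5 genes of the spindle checkpoint, 4 had a log2 fold change above 0 and 1, Bub1b, below it, without a call. Bub1, a checkpoint kinase, had 1.38, 1.24 and 2.97 CPM in aging replicates 2, 3 and 5, against 1.07, 0.450 and 0.755 CPM in control replicates 1, 2 and 3. Its values rest on 8 to 51 counts per library, the groups did not overlap, and it did not pass (log2 fold change 1.29 ± 0.48, SE; edgeR adjusted p = 0.117). Bub1b, which encodes the checkpoint protein BubR1, had 10.99, 8.51 and 10.3 CPM in aging replicates 2, 3 and 5, against 14.6, 13.9 and 11.7 CPM in control replicates 1, 2 and 3. All aging libraries were below all control libraries, and it did not pass either (log2 fold change -0.43 ± 0.15, SE; edgeR adjusted p = 0.103). Mad2l1, whose product blocks Cdc20, and Bub3, the partner of both Bub proteins, stood at 0.46 ± 0.18 and 0.13 ± 0.07 on the log2 scale (SE). The kinase gene Ttk, at 0.768 to 1.34 CPM in aging and 0.596 to 1.13 CPM in control libraries, overlapped between the groups (log2 fold change 0.32 ± 0.42, SE).

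Kinases of spindle assembly and the passenger complex at the centromere gave no call among 5 genes. Aurka, which matures the spindle poles, had a log2 fold change of 0.48 ± 0.33 (SE). Cdca8 and Birc5, subunits of the passenger complex that encode borealin and survivin, had log2 fold changes of 0.64 ± 0.36 and 0.43 ± 0.45 (SE). Aurkb and Plk1, the kinase of that complex and the polo-like kinase, stood at 0.09 ± 0.28 and 0.08 ± 0.23 (SE). Cdc20, the activator of the anaphase-promoting complex, its ubiquitin-conjugating enzyme Ube2c, and Cdca3 were close to 0 or had wide errors. Their log2 fold changes were 0.29 ± 0.23, 0.06 ± 0.41 and 0.03 ± 0.28 (SE).

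At the centromere, Cenpa, the histone variant that marks it, had 26.93, 29.004 and 25.18 CPM in aging replicates 2, 3 and 5, against 31.5, 28.2 and 30.8 CPM in control replicates 1, 2 and 3. The groups overlapped, and its log2 fold change was -0.16 ± 0.10 (SE). Cenpf and the kinesin Cenpe, both at the kinetochore, had log2 fold changes of 0.74 ± 0.36 and 0.39 ± 0.25 (SE). Among spindle motors and bundlers all 7 were above 0, from 0.26 for Kif20a to 1.22 for Kif23. Kif11, the kinesin that pushes the spindle poles apart, had 5.81, 3.07 and 5.35 CPM in aging replicates 2, 3 and 5, against 3.099, 1.912 and 3.399 CPM in control replicates 1, 2 and 3. It overlapped through aging replicate 3 and did not pass (edgeR adjusted p = 0.157). Tpx2, which activates Aurka on the spindle, and Nusap1 and Prc1, which bundle microtubules, had log2 fold changes of 0.58 ± 0.30, 0.53 ± 0.35 and 0.44 ± 0.34 (SE).

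Of the replication genes, the 6 subunits of the MCM helicase gave no call and had a median log2 fold change of 0.06. Mcm6 had 46.7, 49.0 and 44.6 CPM in aging replicates 2, 3 and 5, against 51.4, 50.6 and 45.9 CPM in control replicates 1, 2 and 3, and the groups overlapped. Mcm3 and Mcm4 had log2 fold changes of 0.17 ± 0.09 and 0.20 ± 0.12 (SE), while Mcm2, Mcm5 and Mcm6 lay between -0.08 and -0.06. Mcm7 was the furthest from 0, at 0.39 ± 0.19 (SE; edgeR adjusted p = 0.202). Its exons share bases with Ap4m1 and Cops6 on the other strand, and the counting is not stated to use strand, so reads of these genes cannot be told apart there. In all, 13 of the 53 members share exon bases with a protein-coding gene on the other strand, Ccna2, Cdc45, Tk1 and Ccne2 among them, but not Kif23 or E2f2.

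Of 5 genes of origin licensing and firing none was called by edgeR, 2 had an unadjusted p under 0.05, and DESeq2 called Gins2. Cdc6, which loads the MCM helicase, had 2.13, 1.65 and 1.57 CPM in aging replicates 2, 3 and 5, against 0.715, 0.731 and 1.01 CPM in control replicates 1, 2 and 3. All aging libraries were above all control libraries, on 12 to 37 counts per library, and it did not pass (log2 fold change 1.12 ± 0.31, SE; edgeR adjusted p = 0.0541). Its partner in loading, Cdt1, had 2.99, 2.89 and 3.14 CPM in aging replicates 2, 3 and 5, against 4.59, 3.99 and 3.27 CPM in control replicates 1, 2 and 3. Cdt1 was lower in every aging library than in any control library and did not pass (log2 fold change -0.39 ± 0.21, SE; edgeR adjusted p = 0.253). These 2 loading factors thus had opposite signs, without a call for either. Gins2, a subunit of the GINS part of the active helicase, had 20.4, 15.5 and 11.6 CPM in aging replicates 2, 3 and 5, against 10.8, 10.6 and 6.17 CPM in control replicates 1, 2 and 3. DESeq2 called it (DESeq2 adjusted p = 0.0442) and edgeR did not (edgeR adjusted p = 0.105), and 2758 bases of its exons are shared with Gse1 on the other strand. Mcm10 and Cdc45, which act when origins fire, had log2 fold changes of 0.55 ± 0.35 and 0.50 ± 0.34 (SE).

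Pcna (ENSMUSG00000027342), the sliding clamp of the replicative polymerases, had 84.9, 93.7 and 102 CPM in aging replicates 2, 3 and 5, against 75.5, 72.6 and 75.9 CPM in control replicates 1, 2 and 3. Every aging library was above every control library, by a small step. The log2 fold change of 0.32 ± 0.09 (SE) was just outside the threshold (edgeR adjusted p = 0.0514; DESeq2 adjusted p = 0.0331), and it was called without aging replicate 2 and with relative log expression scaling. Processed pseudogenes of Pcna, Tyms, Ccnb1 and Ccnb2 are annotated in mouse, and how the authors' counting treated reads that fit both is not given in the sources used here.

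Genes of nucleotide supply did not share a direction. Tyms, which makes thymidylate, had 8.63, 7.68 and 7.21 CPM in aging replicates 2, 3 and 5, against 5.01, 6.47 and 3.65 CPM in control replicates 1, 2 and 3, with no overlap (log2 fold change 0.63 ± 0.23, SE; edgeR adjusted p = 0.105). Rrm1 and Rrm2, the large and small subunits of ribonucleotide reductase, had log2 fold changes of -0.04 ± 0.09 and 0.78 ± 0.36 (SE). Rrm2, the subunit whose level follows the cycle, had 4.49, 2.48 and 6.16 CPM in aging replicates 2, 3 and 5, against 3.10, 2.02 and 2.52 CPM in control replicates 1, 2 and 3. Aging replicate 3 again lay within the control range, as in the mitotic members. Tk1, the cytosolic thymidine kinase, had a log2 fold change of -0.45 ± 0.37 (SE).

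E2f2 was alone among the 3 E2F members in passing. E2f1, the other activator, had a log2 fold change of -0.08 ± 0.28, and E2f8, a repressor of E2F targets, 0.19 ± 0.52 (SE). Cyclin E2 (Ccne2) had 4.26, 3.84 and 4.01 CPM in aging replicates 2, 3 and 5, against 3.34, 2.98 and 3.53 CPM in control replicates 1, 2 and 3, without a call (log2 fold change 0.30 ± 0.19, SE). Ccne1 was the only member under the low-count filter, with 15, 2 and 10 counts in aging replicates 2, 3 and 5, against 12, 5 and 7 in control replicates 1, 2 and 3. Cdk2, the kinase partner of cyclin E, had a log2 fold change of -0.01 ± 0.11 (SE). Chek1, the kinase of the replication checkpoint, and Brca1, a repair factor, had log2 fold changes of 0.18 ± 0.36 and 0.32 ± 0.34 (SE).

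Further genes of both processes come from wider lists. Of 52 tested other mitotic genes 40 were above 0, with a median of 0.29, and 3 were called, all higher (5.77%, below the 7.22% of all genes). Cks2, a subunit of cyclin-dependent kinases, had a log2 fold change of 1.28 ± 0.29, Hjurp, the chaperone that deposits Cenpa, 0.54 ± 0.09, and Smc2, a core subunit of condensin, 0.47 ± 0.12 (SE; edgeR adjusted p = 0.0291, 0.0134 and 0.0413). Of 45 other replication genes 23 were above 0, with a median of 0.05, and 2 were called higher (4.44%) and 1 lower. There Slbp, which binds histone mRNA, and Timeless rose by 0.56 ± 0.08 and 0.95 ± 0.22, and Tipin fell by 0.82 ± 0.18 on the log2 scale (SE; edgeR adjusted p = 0.00866, 0.0397 and 0.0269). Timeless and Tipin form a complex at the replication fork, and Timeless takes its name from a clock gene of the fly. Their directions were opposite: Timeless had 35.2, 47.6 and 66.9 CPM in aging replicates 2, 3 and 5, against 23.9, 25.5 and 27.9 CPM in control replicates 1, 2 and 3, and Tipin had 7.83, 10.04 and 10.1 CPM in aging replicates 2, 3 and 5, against 17.0, 19.0 and 13.2 CPM in control replicates 1, 2 and 3.

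Upstream of S phase, 1 of 21 G1 regulators rose and 1 fell, 4.76% each way, against 7.22% and 5.59% of all genes. Ccnd1, a D cyclin through which growth signals open the cycle, fell to 256, 202 and 223 CPM in aging replicates 2, 3 and 5, against 307, 350 and 362 CPM in control replicates 1, 2 and 3 (log2 fold change -0.58 ± 0.12, SE; edgeR adjusted p = 0.0209). The D cyclins Ccnd2 and Ccnd3 were above 0 without a call, at 0.04 ± 0.14 and 0.39 ± 0.12 (SE; edgeR adjusted p = 0.879 and 0.0647). For Ccnd3 all aging libraries were above all control libraries. E2f6, a repressor of the E2F family, rose by 0.56 ± 0.13 on the log2 scale (SE; edgeR adjusted p = 0.0303). Of 7 CDK inhibitors, Cdkn2b rose by 1.89 ± 0.45 and Cdkn2c fell by 0.68 ± 0.16 on the log2 scale (SE; edgeR adjusted p = 0.0367 and 0.0314). Cdkn2b rested on few counts, 26, 30 and 47 in aging replicates 2, 3 and 5, against 4, 13 and 10 in control replicates 1, 2 and 3. Cdkn2c had 8.52, 8.21 and 6.34 CPM in aging replicates 2, 3 and 5, against 12.3, 11.6 and 13.1 CPM in control replicates 1, 2 and 3, with no overlap. Leaving out single libraries ended the call of each called gene named from the wider lists at least once, and that of Smc2 in each of the 6 cases (edgeR adjusted p up to 0.0978).

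The authors' deposited table gives a larger shift of the members than their deposited per-library values. In the authors' deposited table, FDR is under 0.05 with a higher aging value for 23 of 53 members (43.4%) and with a lower one for none, where 13.3% of the genes tested here are higher and 10.2% lower. The median log2 fold change of the members in the authors' deposited table is 0.92, against 0.28 for the log2 ratio of the plain mean FPKM of the same table, and over all genes tested here the medians are 0.01 and -0.05. For Top2a the authors' deposited table gives a log2 fold change of 1.59 and an aging mean of 5.11, where the plain mean of the 3 aging libraries is 2.41 FPKM. Tk1 and Cdt1 have log2 fold changes of 1.00 and 0.91 in the authors' deposited table, but -0.50 and -0.44 as ratios of plain mean FPKM. Neither gene is among the 23 members with an FDR under 0.05 there. The signs were opposite for 8 members in all (Cdk1, Mcm2, Mcm5, Mcm6, Cdt1, Rrm1, Tk1 and E2f1). That is 15.1% of the members, near the 14.7% of all genes tested here, so this count does not set the members apart. The deposited aging mean was a median of 1.62 times the plain mean of the 3 aging libraries for the members and 1.01 times for all genes tested here, while the control mean was 1.04 times and 0.987 times.

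In their arithmetic, all 16960 aging means and all 16813 control means above 0.001 were whole multiples of 0.002 within 1e-06 of a step. A mean of 5 values given to 2 decimals has this step, whereas 3 libraries per group are analysed here. For all 22298 genes and in both groups, 5 times the deposited mean was at least the sum of the 3 FPKM values, within 0.01. Kif23 and E2f2, the 2 called members, had log2 fold changes of 1.18 and 1.67 in the authors' deposited table. That table holds the libraries analysed here, so these values are no separate check on the 2 genes.

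**Figure D5:**
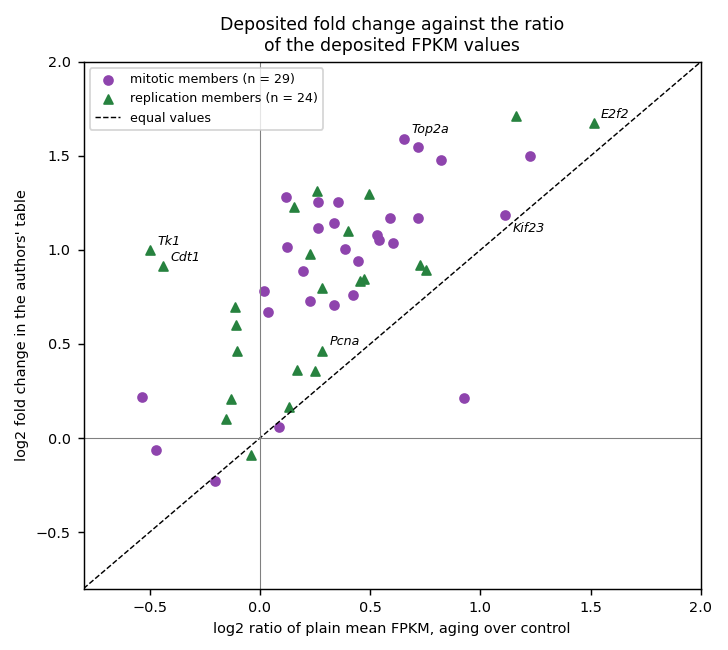
The log2 fold change in the authors' deposited table is plotted against the log2 ratio of plain mean FPKM for 29 mitotic members (purple circles) and 24 replication members (green triangles), with a dashed line where both are equal. Of the 53 points 49 (92.5%) lie above the line, against 60.9% of all genes tested here and 72.1% of those with a mean FPKM of 0.2 to 5. Tk1 and Cdt1 lie left of 0 on the horizontal axis and above 0 on the vertical one.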

How the data were processed

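RNA of 6 libraries of liver sinusoidal endothelial cells was compared as 3 libraries titled aging against 3 titled control. The submitters' processing notes name fastp (version 0.18.0), Bowtie2, HISAT2, RSEM and StringTie (version 1.3.1), without roles. Genome build, annotation and strand setting: not given in the sources used here. Raw counts per gene were deposited for each library, beside FPKM from the authors. Mean columns per group, whose unit is not stated, are treated as a score the authors deposited. The authors' table further holds log2 fold changes, a p-value and an FDR.

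The main test was edgeR's quasi-likelihood test (edgeR 4.0.16, R 4.3.3; robust, TMM factors, group as the single term) on genes kept by filterByExpr (minimum count 10, total 15). P-values were adjusted by Benjamini-Hochberg over all 13096 genes, threshold 0.05. The SE was derived as |log2 fold change| / sqrt(F), and the test was tried on simulated data. At this depth 3 counts in a library equal 0.169 to 0.189 CPM. Replicate libraries were distinct (chi-square over degrees of freedom 8.07 to 51.9). Alternatives were DESeq2 1.42.0, other scalings and filters, a replicate block and leaving out each library. Promoter windows came from RefSeq (GRCm38.p6). Exon overlaps came from GENCODE M21, matched by gene ID. Pseudogenes are named as background and were not searched for. Named genes were every called member, the 3 members with the smallest p in each of the role groups, Mki67, Top2a, Pcna and the called genes of the wider lists. Other genes were named after their values were seen. The members and lists were chosen with earlier results of these data known.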

Additional observations from a re-analysis of the deposited data

How the results depend on the processing

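The number of called members was 2 in the main analysis, 5 with DESeq2 (of 53 tested, where 9.54% of all genes were called higher) and between 0 and 3 when 1 library was left out. No member was called when any of the 3 control libraries was omitted, and omitting aging replicate 3 gave Ccna2, Mki67 and Top2a. Over all genes the number called was 1678, and between 268 and 2121 when 1 library was left out. The median log2 fold change stayed between 0.27 and 0.62 for mitotic members and between 0.18 and 0.34 for replication members in these cases. The difference in the log2 ratio of mitotic to replication sums was 0.13, and between 0.05 and 0.24. Replicates 2 and 3 exist in both groups, but the labels do not say that a number marks a shared source, and the deviations of same-numbered libraries correlated at -0.06 and -0.04. Control replicate 1 and aging replicate 5 have no partner of the same number. A replicate block therefore compares the groups through replicates 2 and 3 alone. With that block 3 members were called (E2f2, Gins2 and Kif23) and 1698 genes in all. The medians were then 0.278 for mitotic and 0.265 for replication members, against 0.43 and 0.20 without the block.

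Among 47 named genes, 7 changed sign under some alternative, none of them called. With the replicate block the log2 fold changes were -0.36 for Ube2c, -0.029 for Cdca3, 0.042 for Tk1 and 0.11 for E2f1, and with upper-quartile scaling Cdca3 was at -0.017. When 1 library was left out they ranged from -0.39 to 0.33 for Ube2c, -0.11 to 0.13 for Cdca3, -0.17 to 0.85 for E2f8, -0.36 to 0.11 for E2f1, -0.063 to 0.065 for Cdk2 and -0.17 to 0.34 for Chek1. The causes were not tested. Depth limits members such as Bub1, Ttk, Ccne1 and Cdc6, whose values rest on few counts.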
